A study of Mus musculus with 3 samples.

Results

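NKX2-5 binding was examined around 9 genes that set the pace of the cell cycle, in chromatin of E11.5 mouse embryonic hearts. The drivers of proliferation were Mycn, Myc, Ccnd1, Ccnd2, Ccnd3 and Cdk6, and the inhibitors were Cdkn1a, Cdkn1b and Cdkn1c. Whole hearts of Parkes mice were used for ChIP-seq with an antibody against NKX2-5, in 2 libraries named S1 and S4 that share strain, stage and tissue, and an Input library was not analysed here. Each ChIP library has its own list of enriched regions, called peaks, with a position on mm9 and a score from the peak caller MACS, which is 10 times the negative log10 of a p-value. A peak was assigned to a gene when its midpoint lay in the gene body of GENCODE M1 or within 100 kb of either end. This gave 9 of 4418 peaks in S1 and 11 of 5441 in S4, and 5 of the 2546 regions in which peaks of both libraries overlapped by at least 1 bp. The labels do not say whether S1 and S4 came from separate pools of hearts, so the spread between them may be technical. A whole heart holds several cell types, and the peaks do not tell in which of them the protein lay. The design has 1 condition, so no difference was tested, and every comparison here is a description.

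NKX2-5 is a homeodomain transcription factor of cardiac progenitors and of the myocardium. The cells of the embryonic heart divide while they differentiate, and growth of the ventricular wall depends on the balance between genes that push cells through G1 and genes that hold them there. D-type cyclins bind CDK4 or CDK6 and phosphorylate the RB protein, which releases E2F factors and starts S phase. MYC and MYCN are transcription factors that raise growth and division, and Mycn is known to be needed for proliferation of the embryonic myocardium. The products of Cdkn1a (p21), Cdkn1b (p27) and Cdkn1c (p57) form the CIP/KIP family, which binds cyclin-CDK complexes and blocks them.

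The sequences that the results turn on are given first. They are read from the plus strand of the NCBIM37 assembly, which is mm9, in windows that reach 100 bp to each side of a midpoint. For Ccnd3, Cdkn1a and Cdkn1c the window lies on the shared region with the highest value of the lower of its 2 scores. For Myc, Ccnd1, Ccnd2 and Cdkn1b, which had no shared region, it lies on a peak of the library named, a choice made after the values were seen. Capitals mark exact matches, to the NKX2-5 core AAGTG, which reads CACTT on the other strand. They also mark the MEIS1 core TGACA, which reads TGTCA on the other strand. MEIS1 is the homeodomain factor whose sites the study compared with those of NKX2-5. The S4 window at Ccnd2 lies wholly in a UTR and is not shown.
Ccnd3, intron, S1 and S4 (chr17:47735173-47735373): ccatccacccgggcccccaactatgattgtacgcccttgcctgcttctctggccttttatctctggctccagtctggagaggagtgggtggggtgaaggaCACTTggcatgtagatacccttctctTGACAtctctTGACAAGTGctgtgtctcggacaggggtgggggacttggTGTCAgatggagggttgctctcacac
Cdkn1a locus, promoter of Srsf3, S1 and S4 (chr17:29169416-29169616): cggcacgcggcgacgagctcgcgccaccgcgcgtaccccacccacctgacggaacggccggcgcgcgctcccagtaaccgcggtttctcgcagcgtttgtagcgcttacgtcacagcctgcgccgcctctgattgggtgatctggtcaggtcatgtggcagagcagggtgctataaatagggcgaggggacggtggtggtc
Cdkn1c locus, intron of Kcnq1, S1 and S4 (chr7:150571658-150571858): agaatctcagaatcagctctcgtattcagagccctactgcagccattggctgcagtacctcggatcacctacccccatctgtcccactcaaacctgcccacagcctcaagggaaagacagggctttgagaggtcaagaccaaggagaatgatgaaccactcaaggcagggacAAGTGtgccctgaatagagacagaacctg
Myc, upstream, S1 (chr15:61815823-61816023): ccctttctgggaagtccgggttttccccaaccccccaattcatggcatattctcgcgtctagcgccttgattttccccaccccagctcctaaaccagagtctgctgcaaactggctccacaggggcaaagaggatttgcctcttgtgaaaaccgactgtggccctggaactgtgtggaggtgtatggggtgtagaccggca
Ccnd1, upstream, S4 (chr7:152127466-152127666): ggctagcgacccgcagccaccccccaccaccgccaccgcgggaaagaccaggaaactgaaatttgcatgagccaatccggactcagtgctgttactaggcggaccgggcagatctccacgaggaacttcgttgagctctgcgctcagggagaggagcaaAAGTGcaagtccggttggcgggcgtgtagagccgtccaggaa
Ccnd2, upstream, S1 (chr6:127103598-127103798): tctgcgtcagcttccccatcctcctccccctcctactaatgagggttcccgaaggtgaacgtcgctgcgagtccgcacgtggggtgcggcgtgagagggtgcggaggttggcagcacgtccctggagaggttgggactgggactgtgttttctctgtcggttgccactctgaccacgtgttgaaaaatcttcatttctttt
Cdkn1b, downstream, S4 (chr6:134878379-134878579): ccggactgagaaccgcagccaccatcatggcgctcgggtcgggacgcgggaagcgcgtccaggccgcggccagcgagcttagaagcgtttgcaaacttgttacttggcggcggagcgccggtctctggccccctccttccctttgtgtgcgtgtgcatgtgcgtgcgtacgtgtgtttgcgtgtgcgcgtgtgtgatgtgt

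Ccnd3 held 3 of the 5 regions found in both libraries, and Cdkn1a and Cdkn1c held 1 each. No peak of either library lay within 100 kb of Mycn or Cdk6. Myc, Ccnd1 and Cdkn1b each had 1 peak in 1 library, and Ccnd2 had 1 peak in each library that did not overlap. In S1, 5 of 9 genes had a peak within 100 kb, against 38.4% of 22380 protein-coding genes. In S4 the count was 6 of 9 against 44.6%, and for shared regions it was 3 of 9 against 24.2%. With 9 genes, 1 gene more or less shifts such a share widely, so nothing is read from these counts.

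**Figure D1:**
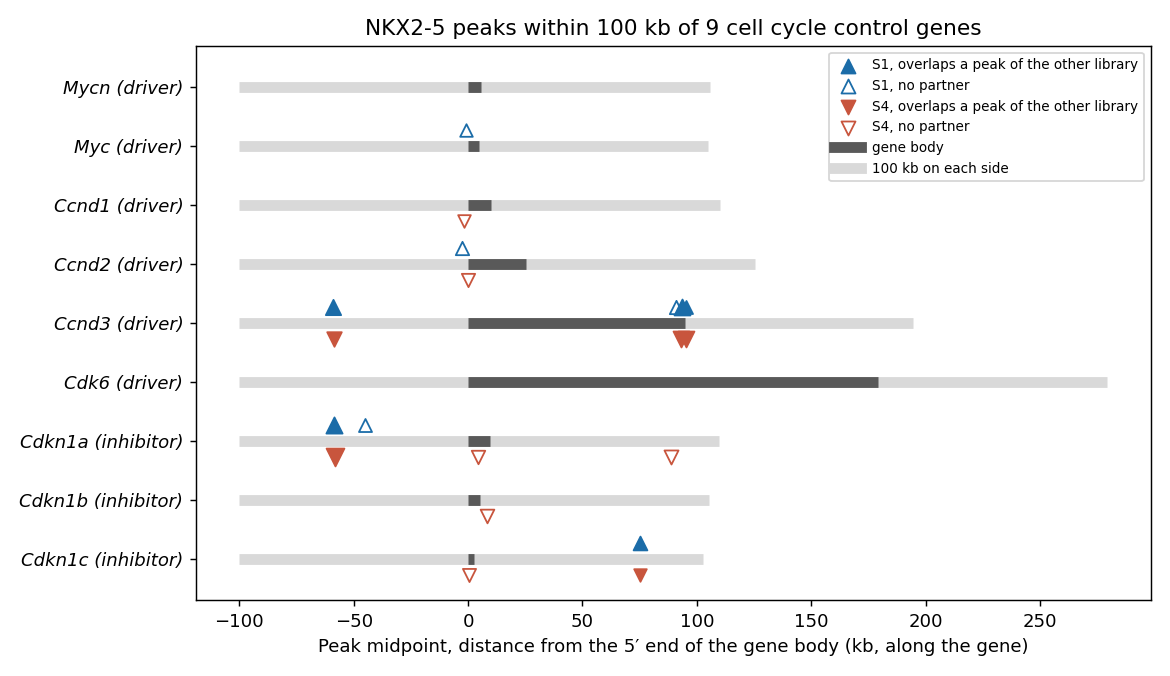
Positions of the 20 member peaks, as the distance of the midpoint from the 5′ end of the gene body in kb along the gene. Upward triangles are S1 and downward triangles S4, filled symbols overlap a peak of the other library, and larger symbols have higher scores. Ccnd3 is seen with 3 filled pairs, and Mycn and Cdk6 without a symbol.

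Among the drivers, Ccnd3 (ENSMUSG00000034165) encodes cyclin D3 on chr17:47642000-47736632 and has 2 annotated starts, so that most of its 94.6 kb gene body lies before the second one. The highest-scoring of its shared regions lay in an intron, 4.86 kb downstream of that second start. It covered chr17:47735011-47735536, with a score of 289 in S1 and 290 in S4, on scales that are not common to both. The midpoints of its S1 and S4 peaks lay 254 bp apart. A second shared region lay 6.67 kb downstream of the same start, at chr17:47736739-47737437, in an exon of Bysl, a gene that runs on the opposite strand and overlaps its 3′ end. Its score was 159 in S1 and 287 in S4. Across all 2610 overlapping pairs of peaks the log2 ratio of S4 to S1 had a median of 0.18 and an SD of 0.75, and this region had 0.85. The third lay 58.8 kb upstream of Ccnd3 in an intron of AI661453, at chr17:47582901-47583418, scoring 257 in S1 and 225 in S4. Its nearest coding start was that of 1700001C19Rik, 8.83 kb from the S1 midpoint. S1 alone had one more peak, in the intron 2.33 kb after the second start of Ccnd3, with a score of 172, and it lay 1.66 kb from the nearest S4 peak.

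The sequence of the intronic Ccnd3 region held both cores several times. The window shown above has 2 matches to AAGTG and 3 to TGACA. Around the midpoint of the S1 peak the counts were the same, and around that of the S4 peak they were 1 and 0. The whole S4 peak held 3 matches to AAGTG and 5 to TGACA. Shares of the cores over the lists were counted in windows only. Matches over whole peaks, here and below, have no background and are not read as sites. At chr17:47735309-47735317 the cores share 1 base in the run TGACAAGTG. This joined run, looked for after it was seen at Ccnd3, occurred on either strand in 32 of 2546 shared regions (1.26%). It is not the overlapping site that the study describes, in which the NKX2-5 part comes before the MEIS1 part. The Ccnd3 region held no match to GTGNTGACA, a spaced pair with the NKX2-5 part before the MEIS1 core. Windows with at least 5 core matches made up 7.31% of shared regions, where the median was 2. The region upstream of Ccnd3 had 2 matches to AAGTG, of which 1 was part of the longer core TNAAGTG, and 1 to TGACA, and the region in Bysl had 1 match to AAGTG and none to TGACA.

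The other D-type cyclins had peaks close to their starts, each in 1 library. At Ccnd2 (ENSMUSG00000000184, chr6:127075797-127101066), which encodes cyclin D2, the S1 peak at chr6:127103416-127103980 lay 2.63 kb upstream of the start with a score of 173. The S4 peak at chr6:127100567-127101303 covered the start itself, with its midpoint 0.131 kb downstream and a score of 171. The peaks were 2.11 kb apart and both lay over 9330179D12Rik, a long non-coding RNA gene that runs in the opposite direction. At Ccnd1 (ENSMUSG00000070348, chr7:152115836-152125774), which encodes cyclin D1, S4 had a peak 1.79 kb upstream, at chr7:152127252-152127880, with a score of 146. The nearest S1 peak was 770 kb from it. The Ccnd1 window shown above has 1 match to AAGTG, and the S1 window at Ccnd2 has no match to either core. Over its whole width, the S1 peak at Ccnd2 held 2 matches to AAGTG.

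Of the MYC genes, Myc (ENSMUSG00000022346, chr15:61816946-61821929) had 1 peak and Mycn (ENSMUSG00000037169, chr12:12942902-12948720) none. The Myc peak was found in S1, 1.02 kb upstream of the nearest start at chr15:61815594-61816252, and its score of 143 was higher than that of 3.42% of the S1 peaks. No core match fell in the window, while the whole 659 bp peak held 2 matches to AAGTG, both of them within TNAAGTG. A longer stretch holds more matches by its length, and no background was counted for whole peaks. The nearest shared region to Myc lay 219 kb upstream, with 165 in S1 and 193 in S4. For Mycn the nearest S4 peak lay 142 kb upstream with a score of 185, and the nearest shared region lay 256 kb upstream, closer to the start of Ddx1. Cdk6 (ENSMUSG00000040274, chr5:3343893-3523218) encodes a kinase partner of the D-type cyclins and has the longest gene body of the 9, 179 kb. Its nearest peak was 406 kb downstream in S1 and 803 kb downstream in S4. Neither gene has a value within the window, and a peak under the lowest deposited score of 140 would not be listed.

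Among the inhibitors, neither shared region lay in the gene body of the member, though the one near Cdkn1c had that gene as its nearest coding start. Near Cdkn1a (ENSMUSG00000023067, chr17:29227924-29237667), which encodes p21, the shared region covered the promoter of Srsf3, a splicing factor gene, with its midpoint 102 bp before that start and 58.4 kb upstream of Cdkn1a. It was the highest-scoring of the 5 shared regions, at chr17:29169152-29169881, with 300.5 in S1 and 388 in S4. The Srsf3 window has no match to AAGTG or TGACA, while the whole common stretch of the region held 1 match to AAGTG. The window has a GC content of 66.7% and a ratio of observed to expected CpG of 1.17. The median of all shared regions was 49.8% for GC and 0.235 for the ratio.

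The Cdkn1a gene itself had a peak in S4 alone, in an intron 1.53 kb downstream of the nearest of its 3 starts, at chr17:29231928-29232560 with a score of 179. Its window held 1 match to AAGTG. A second S4 peak without a partner lay 81.4 kb downstream in an intron of Cpne5 with a score of 202. S1 had a peak without a partner between Srsf3 and Cdkn1a, 44.9 kb upstream of Cdkn1a, with a score of 160. The nearest S4 peak to it was 12.7 kb away. This S1 peak was the one member peak that held the spaced pair GTGNTGACA over its whole width, for which no background was counted.

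Cdkn1c (ENSMUSG00000037664, chr7:150644255-150646955) encodes p57 and lies in an imprinted domain together with Kcnq1, a potassium channel gene. The shared region of this locus lay in an intron of Kcnq1, 75.2 kb downstream of the Cdkn1c start, at chr7:150571519-150571998. Its score was 191 in S1 and 143 in S4, the lowest of the 11 member scores in S4. The window has 1 match to AAGTG. The outermost member peak inside the limit was the one in Cpne5, 78.8 kb from the Cdkn1a gene body. Just outside the limit, a pair of shared regions also lay in intronic sequence of Kcnq1. One lay 102.4 kb from the Cdkn1c gene body by its S1 midpoint, with 260.2 in S1 and 310 in S4. The other lay 108.7 kb from it, with 268 in S1 and 161 in S4. Over the start of Cdkn1c, S4 alone had a peak with its midpoint 263 bp downstream, at chr7:150646290-150647094, with a score of 164. Cdkn1b (ENSMUSG00000003031, chr6:134870419-134875531), which encodes p27, had 1 S4 peak 2.95 kb beyond the end of the gene, at chr6:134878050-134878908, with a score of 187. The nearest S1 peak was 228 kb from it. The Cdkn1b window shown above has no core match, while the whole peak held 2 matches to AAGTG.

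Drivers and inhibitors were then compared by number. The 6 drivers had 6 peaks in S1 and 5 in S4, a mean of 5.5 ± 0.707 (SD, n = 2 libraries). The 3 inhibitors had 3 in S1 and 6 in S4, a mean of 4.5 ± 2.12. Because gene bodies differ in length, the counts were also divided by the length of gene body and flanks. This gave 3.95 peaks per Mb in S1 and 3.29 in S4 near drivers, and 4.86 and 9.72 near inhibitors. Summed in the same way over all protein-coding genes, the density was 2.62 per Mb in S1 and 3.32 in S4. Inhibitors had the higher density in both libraries, narrowly in S1 and widely in S4. With a window of 50 kb, S1 had 5 peaks near drivers and 1 near inhibitors, so the S1 order of density did not hold. Within inhibitors the libraries lay further apart than the roles did in S1, but less far apart than the roles did in S4. Ccnd3 alone gave 4 of the 6 driver peaks in S1 and 3 of the 5 in S4.

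The share of peaks found in both libraries was counted next. Near drivers, 3 of 6 S1 peaks (50%, 95% Clopper-Pearson interval 11.8 to 88.2) and 3 of 5 S4 peaks (60%, 14.7 to 94.7) had a partner. Near inhibitors these were 2 of 3 S1 peaks (66.7%, 9.43 to 99.2) and 2 of 6 S4 peaks (33.3%, 4.33 to 77.7). Intervals cover counting error only, and those of the roles overlap. They treat peaks as independent, which peaks of the same locus are not. In each library all 3 driver peaks with a partner lay at Ccnd3, and no peak of the other drivers had a partner. The driver shares therefore rest on Ccnd3, and the intervals carry no comparison of the roles. In the whole lists 58.9% of S1 and 47.0% of S4 peaks had a partner, and over all 9 genes it was 5 of 9 in S1 and 5 of 11 in S4. Of the peaks that scored no higher than the highest member, 45.4% in S1 and 35.9% in S4 had a partner.

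The member peaks were of low to middling score. In S1 they ran from 143 to 300.5 with a median of 173, and 6 of 9 lay under the median of the list, 212. In S4 they ran from 143 to 388 with a median of 187, and 7 of 11 lay under the list median of 223. The scores of drivers and inhibitors overlapped. The median score in S1 was 172 near drivers and 191 near inhibitors, and in S4 the order was the other way, 225 against 183. Widths showed the same turn. In S1 the median was 612 bp near drivers and 636 bp near inhibitors, against 625 bp in the list, and in S4 it was 870 bp against 719 bp, with 783 bp in the list.

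**Figure D2:**
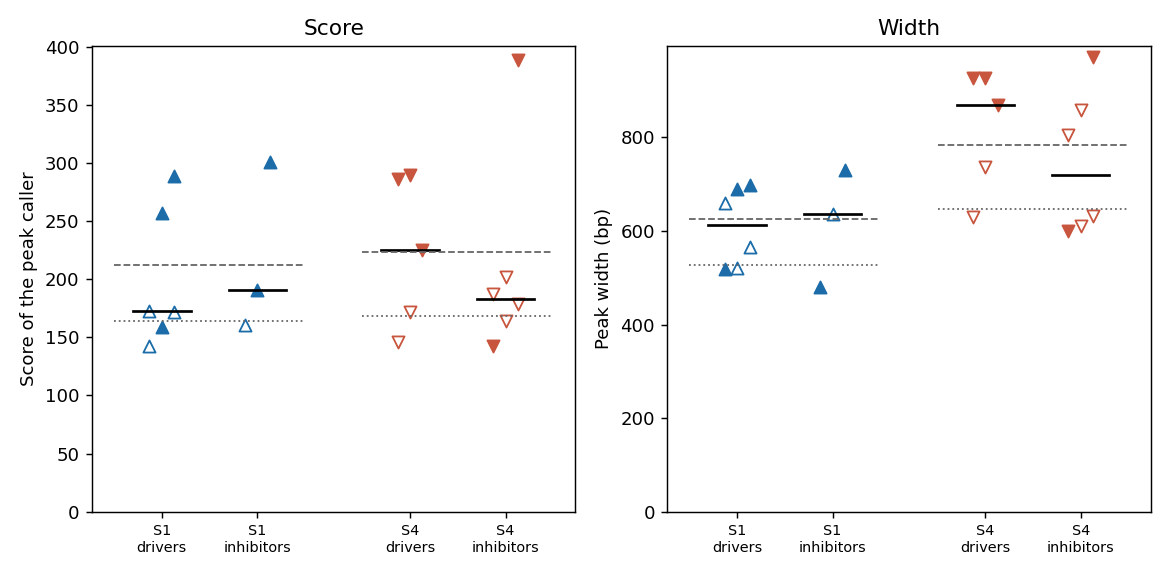
Score of the peak caller and width in bp of every member peak, by library and role. Filled symbols have a partner in the other library, black bars are the medians of the members, and dashed and dotted lines are the median and the lower quartile of the whole list. In S1 the driver median lies below the inhibitor median for both measures, and in S4 above it.

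Position was compared by the distance to a start of the gene. Of the 11 driver peaks of both libraries, 9 lay within 10 kb of a start of the member and 9 had it as the nearest coding start. Of the 9 inhibitor peaks, 3 lay within 10 kb and 5 had the member as the nearest. In the whole lists, 40.4% of S1 and 42.2% of S4 peaks lay within 10 kb of the start of any coding gene. These shares count any coding start, so they are no background for counts by the member's own start. Measured to any coding start, every member peak lay within 10 kb except those in the Kcnq1 intron, 75.2 kb from Cdkn1c. The 9 driver peaks near their own start include 5 at Ccnd3. Peaks of 1 locus are not independent, so the contrast between the roles was not tested. In S1 no inhibitor peak lay within 10 kb of the gene it was assigned to, and in S4 each of the 3 inhibitors had 1. By midpoint, 1 of 9 member peaks in S1 and 3 of 11 in S4 lay at a promoter, within 1 kb of a transcript start, against 21.3% and 22.7% in the lists.

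The limit of 10 kb from a start was chosen after the values were seen. In S1, 3 of 9 genes had such a peak (Myc, Ccnd2 and Ccnd3), against 9.06% of protein-coding genes. In S4, 6 of 9 had one (Ccnd1, Ccnd2, Ccnd3, Cdkn1a, Cdkn1b and Cdkn1c), against 11.4%. In either library it was 7 of 9 against 15.1%, and by shared regions it was Ccnd3 alone, 1 of 9 against 4.68%. Genes with many annotated starts have more sequence within this limit, and Myc had 5 starts while Cdkn1b and Cdkn1c had 1.

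Of the 12 member peaks near a start, 8 had no partner, and their scores ran from 143 to 187. These were 3 of 5 in S1 and 5 of 7 in S4, against 47.6% of S1 and 60.5% of S4 peaks within 10 kb of any coding start, so the counts lie near the background. The ratio of observed to expected CpG in the 8 windows ran from 0.28 at Ccnd3 and 0.387 at Myc to 1.2 at Cdkn1a, with a median of 0.788. In the 10 member peaks with a partner, which are 5 regions counted in both libraries, it ran from 0.0668 to 1.17, with a median of 0.145 and the highest values at the Srsf3 promoter. Among all peaks without a partner within 10 kb of a coding start, S1 had a median ratio of 0.435 and a median score of 169, and S4 had 0.442 and 186. An AAGTG core lay in the window of 3 of the 8, at Ccnd1, Ccnd3 and Cdkn1a, against 48.6% and 46.0% of those peaks in S1 and S4, and none of the 8 windows held TGACA, against 38.9% and 38.4%. The part of base composition in these peaks was not tested.

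**Figure D3:**
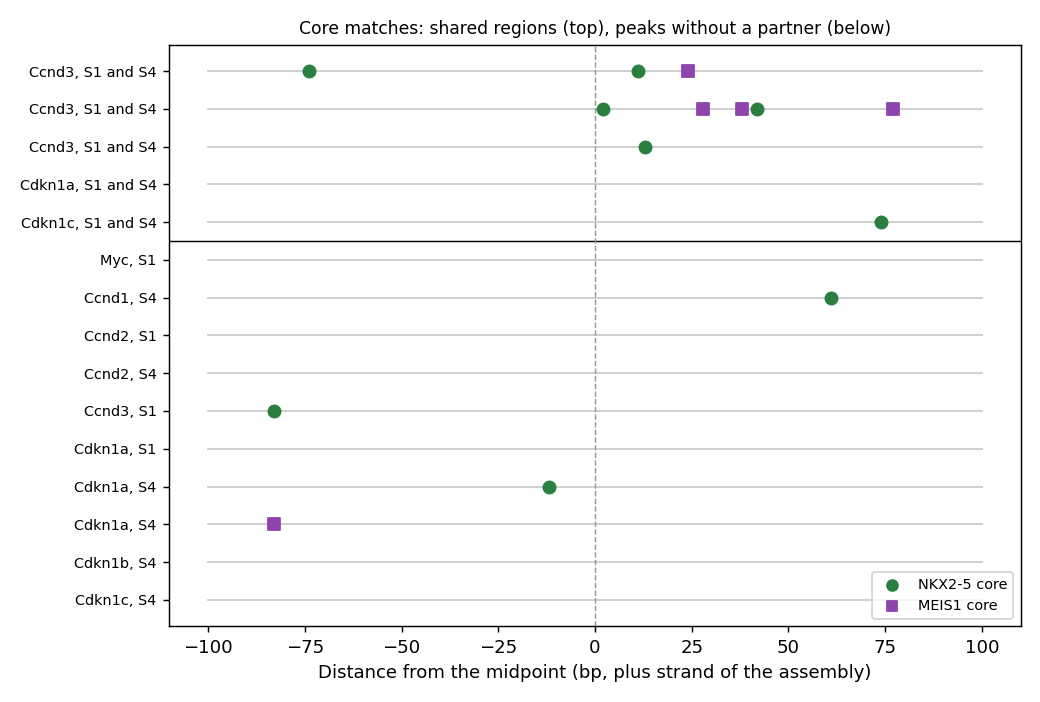
Exact matches to the NKX2-5 core (circles) and the MEIS1 core (squares) in windows of 100 bp on each side, as the distance in bp from the midpoint, for the 5 shared regions above the line and the 10 peaks without a partner below it. The second Ccnd3 row holds 2 circles and 3 squares, and 7 of the 10 lower rows are empty of the NKX2-5 core. Rows show the windows only, and whole peaks can hold further matches.

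Over the 5 shared regions, AAGTG lay in 4 windows, TNAAGTG in 1 and TGACA in 2, and GTGNTGACA in none. The shares over all shared regions were 64.0% for AAGTG, 32.4% for TNAAGTG, 64.3% for TGACA and 9.47% for GTGNTGACA. AAGTG is contained in TNAAGTG and TGACA in GTGNTGACA, so the counts are not separate. All 3 driver regions held AAGTG and 2 held TGACA, while 1 of the 2 inhibitor regions held AAGTG and neither held TGACA. With so few regions these counts carry no comparison of the roles. Counted by peak, AAGTG lay in 5 of 9 S1 windows and 6 of 11 S4 windows, beside 60.1% and 57.8% of all peaks of these lists.

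A list of 74 other cell cycle genes in 7 roles was set beside the members. Of these, 30 had an S1 peak within 100 kb (40.5%), 41 had an S4 peak (55.4%, 43.4 to 67.0) and 20 had a shared region (27.03%, 17.4 to 38.6). The interval for S1 was 29.3 to 52.6, and the shares over protein-coding genes given above lie inside all of these intervals. By role, shared regions were near 6 of 19 genes of the RB, E2F and DREAM group, which switches S phase genes on and off, and near 3 of 9 genes of the MYC network. They were near 4 of 12 cyclins, kinases and phosphatases of S, G2 and M phase and near 2 of 7 INK4 inhibitors and inhibitory kinases. Of 8 G1 cyclins and kinases 1 gene, Mnat1, had one, and so did 2 of 11 checkpoint genes and 2 of 8 SCF and CKS genes.

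**Figure D4:**
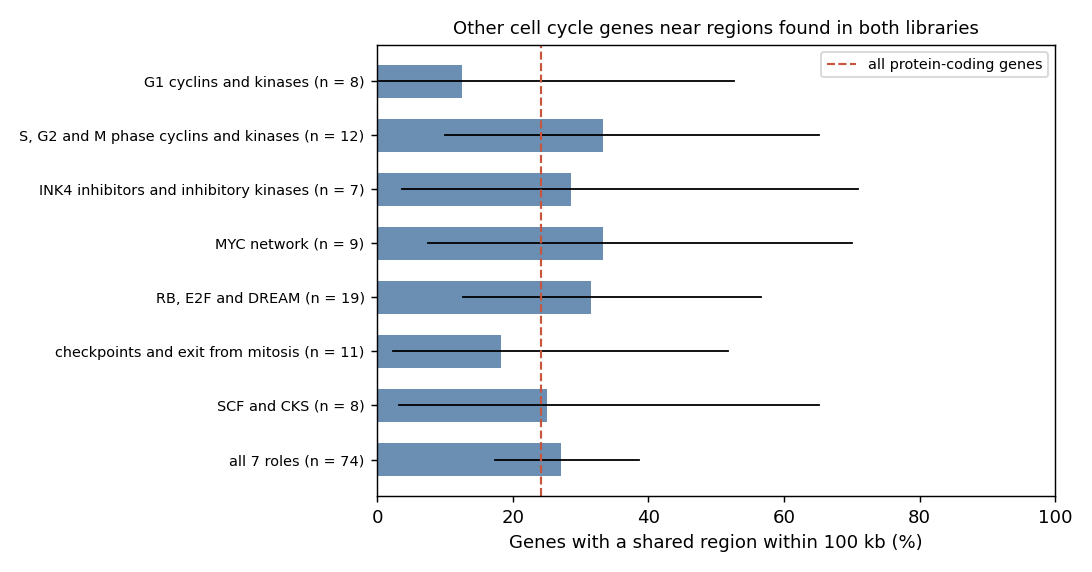
Share of genes in percent with a shared region within 100 kb, for 7 roles of cell cycle genes and for all 74 together. Black lines are exact 95% intervals, and the dashed line is the share of all protein-coding genes, 24.2%, which lies inside every interval.

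Of the 10 of these genes with the highest-scoring shared regions, 9 had the region nearest to the start of another gene. Tfdp1, which encodes a partner of the E2F factors, had a region with 2468 in S1 and 2643 in S4, at the promoter of Adprhl1 and 95.1 kb upstream of Tfdp1. Near Mxd4, which encodes an antagonist of MYC, scores of 1018 and 895 lay over Zfyve28. Near E2f8, a repressor of the E2F family, 534 and 1259 lay at the promoter of Csrp3, a muscle gene. Near E2f2 the region with 566 and 492 had Id3 as its nearest coding start. Aurkb, Lin54, Mycl1, Lin52 and Trp53 likewise had a region nearest to another gene, and Wee1, a kinase that holds back mitosis, was the one of these 10 genes whose own start was nearest to its highest-scoring region, 34.7 kb away with 694 in S1 and 466 in S4. In all, 6 of the 29 regions near the 74 genes had the listed gene as the nearest coding start. Of the 5 shared regions of the 9 members, 3 had it, both regions beside the second start of Ccnd3 and the one in Kcnq1. The same share over all protein-coding genes was not computed. These counts are therefore not read as a trait of cell cycle genes or as a difference between members and list.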

How the data were processed

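ChIP libraries S1 and S4 and 1 Input came from E11.5 hearts. According to the study's methods and the submitters' processing notes, the authors aligned reads to mm9 with Bowtie and called peaks with MACS 1.4, and CASAVA 1.4 is named too. Peaks were called per library. Settings and use of the Input as control are not given in the sources used here. The score deposited by the authors is made from the p-value of a peak in its own library (negative log10, multiplied by 10). No value is under 140, and S1 and S4 scores share no common scale. The deposited start and end are other values, positions in bp. Depth is unknown, so scores have no interval.

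Positions were counted from 1 and 0 peaks lay outside the chromosomes of NCBIM37 (mm9). All 9 members and all 74 listed genes matched a GENCODE M1 symbol. Overlapping pairs with a peak in common were merged. A shared region was placed by the middle of its common stretch. Promoters were within 1 kb of a transcript start. Motifs were exact matches on both strands within 100 bp of the midpoint. Exact Clopper-Pearson limits used a confidence of 0.95. All members were named with every peak, and of the listed genes the 10 with the highest lower score of a pair. The members and lists were chosen with earlier results of these data known. Alternatives were windows of 50 kb and 200 kb, distance to a transcript start, a score of at least 200, an overlap of 50% of both peaks, midpoints within 150 bp, a promoter limit of 5 kb, other motif windows, peaks nearest to the member only, and each library alone. The overlap and distance procedures were tested on simulated data. Python 3.11.15, numpy 2.4.6, scipy 1.17.1, pandas 2.3.3, pysam 0.24.0 and matplotlib 3.10.9 were used.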

Additional observations from a re-analysis of the deposited data

How the results depend on the processing

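Of 98 recomputed values, 70 changed by less than the limit set (1 SD, the counting interval or 1.5 times), 20 by more and 8 in sign. All 8 sign changes were in the difference between drivers and inhibitors in median score or width. With 50 kb the S1 differences became 11.6 in score and 23 bp in width and the S4 width difference -1.5 bp. With 200 kb they were 38.5 bp in S1 width and -1.94 in S4 score, and with peaks nearest to the member only 179 bp in S1 width. Leaving out each library in turn gave -18.5 to 41.96 for score and -24 to 151 bp for width. No order of the roles in score or width can be read from these values.

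A window of 50 kb left a mean of 2 peaks near inhibitors, none with a partner (0% in both libraries, 0 inhibitors with a shared region). It gave 4.89 peaks per Mb near drivers and 6.30 near inhibitors, as means of the libraries. In S1 alone this window held 5 peaks near drivers and 1 near inhibitors. A window of 200 kb gave 9.5 peaks near drivers, 11 near inhibitors, 2 drivers and 32 of the 74 other genes with a shared region. A score of at least 200 left 2.5 peaks near drivers and 1.5 near inhibitors, 1 inhibitor and 13 other genes with a shared region, and partners for 100% of S1 peaks in both roles. Peaks nearest to the member only gave partners for 100% of S1 inhibitor peaks, since 1 peak was left. A promoter limit of 5 kb raised the promoter count to 5 in S1 and 7 in S4. The whole stretch of both peaks held TNAAGTG in 2 regions, and windows of 25 bp on each side held TGACA in 0. The windows and the score limit change the number of peaks by construction, and the cause was not tested for other results. Alone, the libraries gave 5 to 6 peaks near drivers and 3 to 6 near inhibitors. The limit of 10 kb was added after seeing the data. No paired analysis was possible because the design has 1 condition and no test. Depth is unknown, which limits what can be said of peaks without a partner near the lowest score.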

Other observations

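Of the 9 members, 3 in S1 (Ccnd2, Cdkn1a and Cdkn1c) and 5 in S4 (Mycn and Ccnd1 as well) had a peak between 100 kb and 200 kb from the gene body that scored higher than any within 100 kb, where Mycn had none. The share of all protein-coding genes with such a peak was not computed. The outer range adds 100 kb on each side, so nothing particular to these genes is read from the counts. For Cdkn1c the highest outside was 268 in S1 and 310 in S4, against 191 and 164 inside, and for Ccnd1 in S4 it was 222 against 146. Upstream of Ccnd2, 160.7 kb from it by the S1 midpoint, a region at chr6:127261311-127262221 was found in both libraries and scored 1041 and 858, higher than any of the 20 member peaks. Its nearest coding start was that of Gm10414. Downstream of Cdkn1a, 4 S1 peaks and 4 S4 peaks lay in this range, all with a partner, and their nearest coding starts were those of Cpne5 and Ppil1. The highest-scoring of them had 419 in S1 and 562 in S4, in an intron of Ppil1. These peaks account for 4 of the S1 peaks that 200 kb adds near inhibitors, and the intronic peaks of Kcnq1 near Cdkn1c for the other 2.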
